A study of Mus musculus with 18 samples.

Results

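The genes described here are 10 genes named for regulatory and follicular helper T cells, followed through leukocytes sorted from tumor-bearing mouse livers. They are Foxp3, Il2ra, Ikzf2, Nrp1, Ikzf4, Bcl6, Sh2d1a, Cebpa, Izumo1r and Cd200. They were chosen by symbol, and each symbol matched 1 identifier, so that the list holds 10 of the 48440 identifiers in the count table. Liver tumors were raised in wild-type C57BL/6J mice by hydrodynamic tail vein injection of Ras and Myc oncogenes, and CD45+ cells were separated by CD3 and CD8. The mice were bought at 7 weeks of age. Treated mice were given poly(I:C), a double-stranded RNA analog, at a dose of 4 mg/kg, and 200 µg of anti-PD-L1, which blocks the checkpoint ligand PD-L1, 6 times on alternate days. Untreated mice carried the same tumors. Anti-VEGF-A is named in dosing notes shared by all libraries, but the treatment label of no library used here lists it. There were 6 groups of 3 libraries: treated CD3+CD8-, untreated CD3+CD8-, treated CD3+CD8+, untreated CD3+CD8+, treated CD3-CD8- and untreated CD3-CD8-. The labels do not say that replicates are separate mice, so p-values measure the spread between these libraries, which may be technical. Treated and untreated libraries share no replicate number.

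Regulatory T cells are CD4 T cells that restrain other lymphocytes, and the transcription factor Foxp3 defines them. Il2ra encodes CD25, the alpha chain that gives the IL-2 receptor its high affinity. Ikzf2 (Helios) and Ikzf4 (Eos) are Ikaros-family factors found in regulatory T cells, and Nrp1 (neuropilin-1) is a semaphorin and VEGF receptor that marks many thymus-derived regulatory T cells in mice. Follicular helper T cells help B cells in germinal centers, and the repressor Bcl6 is required for them and for germinal center B cells. Sh2d1a encodes SAP, the adaptor of SLAM-family receptors that holds follicular helper T cells on B cells, and Cd200 encodes a surface glycoprotein that restrains myeloid cells through its receptor. Izumo1r encodes folate receptor 4, found on mouse regulatory and follicular helper T cells. Cebpa encodes a factor best known from granulocyte development, and it is not a classical gene of either T cell type.

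In GENCODE vM21 on GRCm38 all 10 are protein-coding. Foxp3 lies on chromosome X at 7573644 to 7595245 and Sh2d1a on chromosome X at 42502453 to 42529330, both on the plus strand. Il2ra is on chromosome 2 at 11642807 to 11693193 (plus), Ikzf2 on chromosome 1 at 69531214 to 69687245 (minus), and Nrp1 on chromosome 8 at 128358604 to 128503363 (plus). Ikzf4 is on chromosome 10 at 128630843 to 128645991 (minus), and Cebpa on chromosome 7 at 35119293 to 35121928 (plus). Bcl6 at 23965052 to 23988852 and Cd200 at 45382135 to 45409053 are both on chromosome 16, minus strand, and Izumo1r is on chromosome 9 at 14885814 to 14903949 (minus). The build of the deposited tables is not given in the sources used here, and these positions come from matching the identifiers.

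RefSeq (GRCm38.p6) held a promoter entry for 7 of the 10 genes, not for Ikzf2, Ikzf4 or Sh2d1a. The 250 bases upstream of the RefSeq start are shown for Foxp3, Il2ra and Bcl6, the genes with the smallest adjusted p between CD3+CD8- and CD3+CD8+ cells of treated livers. They are chrX:7579426-7579675 on the plus strand for Foxp3, chr2:11642542-11642791 on the plus strand for Il2ra and chr16:23988853-23989102 on the minus strand for Bcl6, each read 5′ to 3′. For Foxp3 the RefSeq start is the one the deposited table uses, downstream of the first base of the GENCODE gene, so that its window lies within the GENCODE span. Capitals mark matches on either strand to GGAAA, the core bound by NFAT factors, and to TTCNNNGAA, the palindrome bound by STAT factors.
Foxp3: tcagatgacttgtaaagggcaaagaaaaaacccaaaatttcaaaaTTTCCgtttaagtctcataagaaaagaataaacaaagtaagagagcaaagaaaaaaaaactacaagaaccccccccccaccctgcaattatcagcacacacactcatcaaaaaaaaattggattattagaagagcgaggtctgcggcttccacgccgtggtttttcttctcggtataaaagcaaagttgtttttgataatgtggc
Il2ra: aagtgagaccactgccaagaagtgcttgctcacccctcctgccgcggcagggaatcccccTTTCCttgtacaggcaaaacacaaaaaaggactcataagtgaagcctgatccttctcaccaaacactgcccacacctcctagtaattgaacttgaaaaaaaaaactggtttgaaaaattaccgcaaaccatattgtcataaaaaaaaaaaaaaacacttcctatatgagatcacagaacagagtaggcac
Bcl6: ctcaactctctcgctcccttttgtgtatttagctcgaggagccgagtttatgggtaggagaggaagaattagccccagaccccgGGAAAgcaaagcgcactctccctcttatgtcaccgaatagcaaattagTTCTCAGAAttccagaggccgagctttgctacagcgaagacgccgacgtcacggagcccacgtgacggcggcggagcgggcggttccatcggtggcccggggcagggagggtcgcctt
Each stretch holds 1 GGAAA match, a motif found in the same window of 55.6% of 32817 RefSeq promoters. Bcl6 is the 1 gene of the 7 whose window holds a TTCNNNGAA match, found in 7.01% of all promoters, and no match overlaps another. A match describes the letters and says nothing about binding in these cells.

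Library totals ranged between 1829155 and 28233682 counts. In 3 libraries, called rich in ribosomal counts here, most counts lay on the 5 loci Rn18s-rs5, Lars2, mt-Rnr2, mt-Rnr1 and Gm15564, 3 of which are ribosomal RNA genes: 83.98% in treated CD3+CD8- replicate 2, and 87.04% and 79.73% in untreated CD3+CD8+ replicates 1 and 18. Counts outside those loci numbered 1654913, 606759 and 486461 in these 3 libraries, all of which carry lane 3 in their library names. Levels are given as CPM, the counts of a gene relative to its library's total, scaled by TMM over all 18 libraries. Cd4 had 998, 448 and 874 CPM in treated CD3+CD8- libraries, against 449, 284 and 103 CPM in untreated ones. Cd8a had 12.7, 23.5 and 7.68 CPM in treated CD3+CD8- libraries, against 4.63, 6.80 and 639 CPM in untreated ones. The 639 CPM belongs to the library labelled untreated CD3+CD8- replicate 6, which also holds the lowest Cd4, so these 2 transcripts go against its label. Its Foxp3, given below, and its 10 neutrophil markers, at 5269.9 CPM, lay within the range of the other CD3+CD8- libraries. Members' treatment values in CD3+CD8- cells, and their calls in other contrasts that use this library, are given with and without it (the pathway list counts and medians include it). The CD3-CD8- libraries also hold sort-marker transcripts: Cd8a had 982, 547 and 811 CPM in treated ones and 181, 287 and 60.6 CPM in untreated ones, and Cd3e had 311, 173 and 228 CPM against 110.4, 125 and 51.8 CPM. Neutrophil transcripts were high in the fraction of main interest: 10 neutrophil markers summed to between 11104 and 31971 CPM in treated CD3+CD8- libraries and between 3042 and 14524 CPM in untreated ones, and to at most 820.0 CPM in any CD3+CD8+ library. Their part in the results below was not tested. Because these are bulk libraries, fewer cells of a type and less RNA per cell cannot be told apart.

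**Figure D1:**
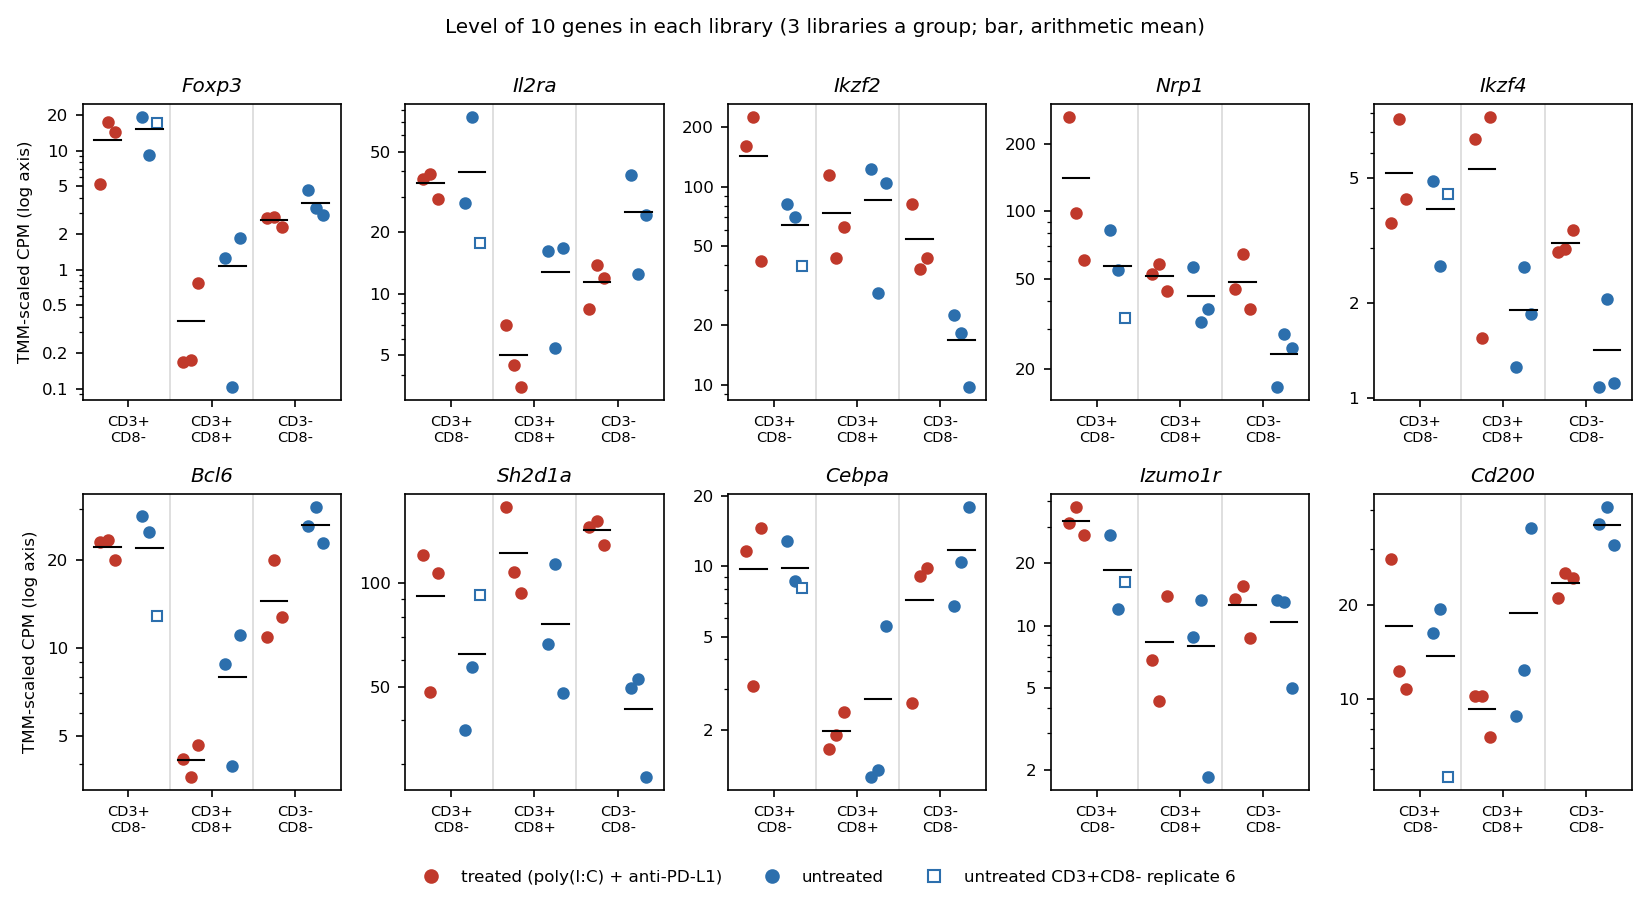
TMM-scaled CPM (log axis) of the 10 genes in each of the 18 libraries, by sorted fraction, with treated libraries in red and untreated in blue (bar, arithmetic mean of 3). Foxp3 lies between 5.26 and 19 CPM in the CD3+CD8- libraries and at 1.85 CPM or less in every CD3+CD8+ library.

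Whether poly(I:C) with anti-PD-L1 changed the regulatory and follicular helper genes of CD3+CD8- cells was tested with edgeR's quasi-likelihood test, with Benjamini-Hochberg adjustment over all 11197 genes and a threshold of 0.05. None of the 10 genes passed, and neither did any other gene, so that the background share called was 0%. At an unadjusted p below 0.05 there were 198 genes, 1 of them among the 10, and DESeq2 called 2 genes, neither among the 10. The 10 genes had a median log2 fold change of 0.30 with 7 above 0, against a median of -0.02 over all genes tested. Without untreated replicate 6 the median was 0.17 with 5 of 10 above 0, against 0.02 over all genes, and none was called. Every adjusted p of the 10 was 1 in the edgeR test.

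Foxp3 had 5.26, 17.3 and 14.4 CPM in treated CD3+CD8- libraries, against 19, 9.16 and 17.0 CPM in untreated ones. The groups overlapped, and treated replicate 11 was the lowest of the 6. The log2 fold change was -0.31 (SE 0.50; 95% interval -1.43 to 0.82), and -0.21 without untreated replicate 6 (interval -1.49 to 1.07). Without treated replicate 11 the estimate turned to 0.07.

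Il2ra had 36.8, 38.9 and 29.2 CPM in treated CD3+CD8- libraries, against 27.9, 73.5 and 17.8 CPM in untreated ones. The treated values lay inside the untreated range, which was set by untreated replicates 18 and 6. The log2 fold change was -0.19 (SE 0.46; interval -1.22 to 0.85), -0.52 without untreated replicate 6, and 0.58 without untreated replicate 18, which turned its direction.

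Nrp1 and Ikzf2 had the highest fold changes of the 10 genes in this fraction. Nrp1 had 261, 98.2 and 60.7 CPM in treated libraries, against 82.8, 55.2 and 33.5 CPM in untreated ones. Treated replicates 11 and 2 stood above every untreated library, while treated replicate 19 lay inside their range. Its log2 fold change was 1.25 (SE 0.54; interval 0.05 to 2.46; unadjusted p = 0.0431 in the edgeR test). It came to 0.99 without untreated replicate 6 and to 0.47 without treated replicate 11. Ikzf2 had 160.2, 223 and 42.0 CPM in treated libraries, against 81.7, 69.9 and 39.6 CPM in untreated ones. Again treated replicates 11 and 2 were the highest and treated replicate 19 was close to untreated replicate 6, and the log2 fold change was 1.13 (SE 0.54; interval -0.10 to 2.35), and 0.89 without untreated replicate 6. Ikzf4 was the rarest of the 10 in this fraction, with 3.59, 7.70 and 4.29 CPM in treated libraries and 4.88, 2.62 and 4.44 CPM in untreated ones, and its log2 fold change was 0.33 (SE 0.51; interval -0.82 to 1.47), and 0.41 without untreated replicate 6.

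Bcl6 had 23.2, 23.5 and 20.0 CPM in treated CD3+CD8- libraries, against 28.4, 25.1 and 12.9 CPM in untreated ones. The treated libraries were close together, and untreated replicate 6 was the lowest of the 6. The log2 fold change was -0.02 (SE 0.35; interval -0.81 to 0.76), and -0.28 without untreated replicate 6 (interval -0.97 to 0.42). Sh2d1a had 121, 48.5 and 107 CPM in treated libraries, against 37.5, 57.3 and 92.5 CPM in untreated ones. The groups overlapped through treated replicate 2, the library rich in ribosomal counts, and the log2 fold change was 0.55 (SE 0.43; interval -0.41 to 1.52), and 0.97 without untreated replicate 6 (interval -0.01 to 1.95). Izumo1r had 31.3, 37.4 and 27.5 CPM in treated libraries, against 27.5, 12 and 16.2 CPM in untreated ones. The lowest treated and the highest untreated value met at 27.5 CPM, and the log2 fold change was 0.74 (SE 0.37; interval -0.09 to 1.58), and 0.66 without untreated replicate 6. Cd200 had 28.0, 12.3 and 10.8 CPM in treated libraries, against 16.2, 19.4 and 5.66 CPM in untreated ones, a log2 fold change of 0.27 (SE 0.51) that came to -0.07 without untreated replicate 6. Cebpa had 11.7, 3.08 and 14.6 CPM in treated libraries, against 12.8, 8.63 and 8.08 CPM in untreated ones, a log2 fold change of 0.01 (SE 0.52) that came to -0.09 without untreated replicate 6. In both of these genes the groups overlapped.

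Foxp3 and Bcl6 were also set against Cd4, the transcript that marks the helper lineage, within each CD3+CD8- library. A ratio to Cd4 is not a level per helper cell, since these libraries also hold neutrophil transcripts. Which cells the Bcl6 transcripts come from was not tested. The log2 ratio of Foxp3 to Cd4 was -7.52, -4.68 and -5.91 in treated libraries (mean -6.04 ± 1.43, SD, n = 3), against -4.55, -4.93 and -2.58 in untreated libraries (mean -4.02 ± 1.26, SD, n = 3). The groups overlapped, since treated replicate 2 lay above untreated replicate 18, and the difference of -2.02 had a two-sided exact permutation p of 0.2. The log2 ratio of Bcl6 to Cd4 was -5.42, -4.24 and -5.44 in treated libraries (mean -5.03 ± 0.68, SD, n = 3), against -3.97, -3.49 and -2.97 in untreated libraries (mean -3.48 ± 0.50, SD, n = 3). Here every treated library lay below every untreated one, and the difference of -1.55 had a two-sided exact permutation p of 0.1, the smallest that 3 against 3 libraries allow. Cd4 itself had an edgeR log2 fold change of 1.45 (SE 0.57; adjusted p = 1) in this fraction, and the ratios take in its level as well as that of the 2 genes. Without untreated replicate 6 the Foxp3 difference was -1.30 and the Bcl6 difference -1.30, and without treated replicate 11 they were -1.27 and -1.36. Set against Cd3e, the differences were -1.05 for Foxp3 (exact permutation p = 0.1) and -0.59 for Bcl6 (exact permutation p = 0.4).

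**Figure D2:**
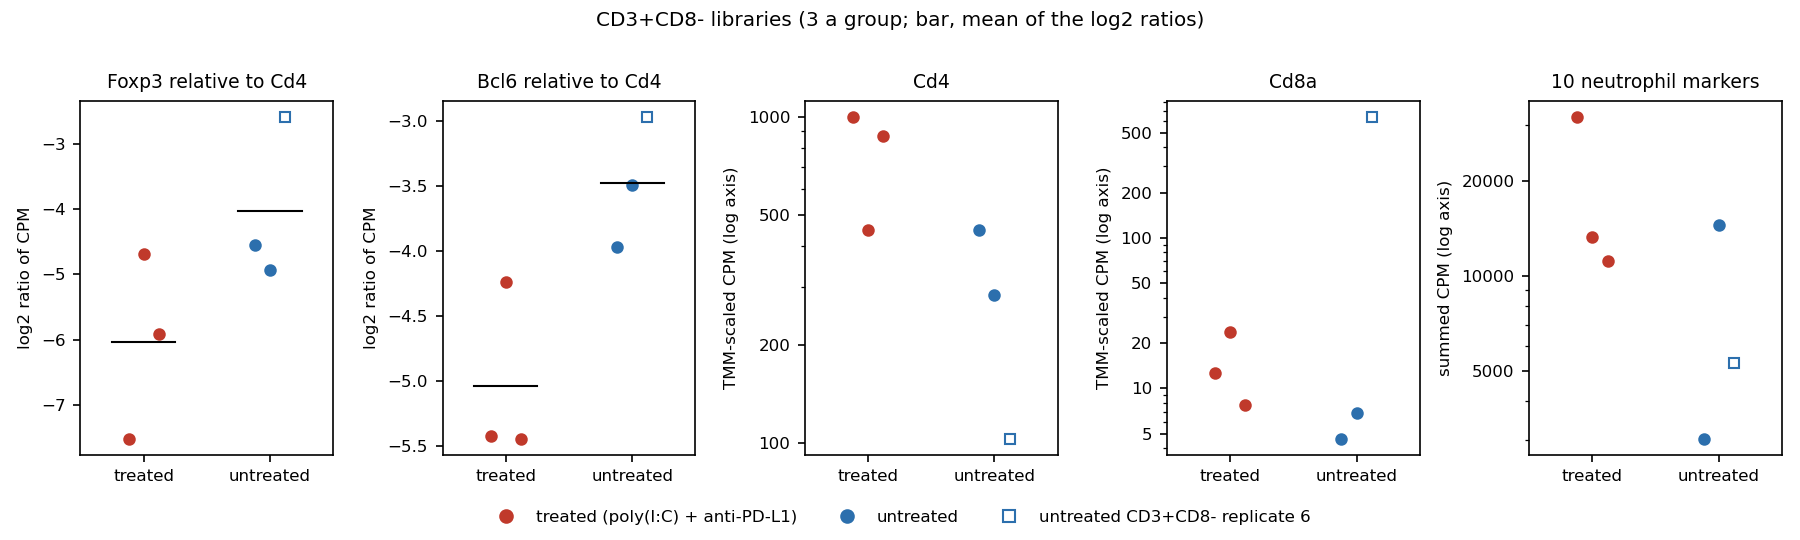
Log2 ratios of Foxp3 and Bcl6 to Cd4, the CPM of Cd4 and Cd8a, and the summed CPM of 10 neutrophil markers (log axes) in the 3 treated (red, left) and 3 untreated (blue, right) CD3+CD8- libraries. Untreated replicate 6 (open square) has the highest Cd8a at 639 CPM, the lowest Cd4 at 103 CPM and the highest ratio of both genes to Cd4.

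Set against CD3+CD8+ cells of treated livers, CD3+CD8- cells held more transcript of 5 of the 10 genes: Foxp3, Il2ra, Bcl6, Cebpa and Izumo1r (edgeR adjusted p below 0.05 over 13181 genes). Of all genes tested, 5.44% were called higher in the same contrast, and none of the 10 was called lower. The median log2 fold change of the 10 was 1.67, against -0.05 over all genes tested. In the labelled sort, Cd4 was 4.57 higher (SE 0.52; edgeR adjusted p = 6.92e-04) and Cd8a fell by 6.45 (SE 1.45; edgeR adjusted p = 0.0122) on the log2 scale.

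Foxp3 showed the widest gap. It had 5.26, 17.3 and 14.4 CPM in treated CD3+CD8- libraries, against 0.166, 0.173 and 0.773 CPM in treated CD3+CD8+ libraries, which rest on 1, 1 and 21 counts. Every CD3+CD8- library was above every CD3+CD8+ library, and the log2 fold change was 4.68 (SE 0.66; interval 3.29 to 6.06; edgeR adjusted p = 9.40e-04). Pooled over the 3 libraries of each group there were 339 counts in CD3+CD8- against 23 counts in CD3+CD8+, a ratio of 22.4 after scaling (exact 95% interval 14.7 to 35.8, counting error only).

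Il2ra had 36.8, 38.9 and 29.2 CPM in treated CD3+CD8- libraries, against 6.99, 4.49 and 3.50 CPM in treated CD3+CD8+ libraries, a log2 fold change of 2.83 (SE 0.55; edgeR adjusted p = 0.00458). Bcl6 had 23.2, 23.5 and 20.0 CPM in treated CD3+CD8- libraries, against 4.16, 3.63 and 4.64 CPM in treated CD3+CD8+ libraries, a log2 fold change of 2.40 (SE 0.36; edgeR adjusted p = 0.0011). Neither gene's groups overlapped, and the calls for Foxp3, Il2ra and Bcl6 held in the edgeR test when each of the 6 libraries was left out in turn. Cebpa had 11.7, 3.08 and 14.6 CPM in treated CD3+CD8- libraries, against 1.66, 1.90 and 2.39 CPM in treated CD3+CD8+ libraries (log2 fold change 2.31, SE 0.60; edgeR adjusted p = 0.0278). Izumo1r had 31.3, 37.4 and 27.5 CPM, against 6.82, 4.32 and 13.9 CPM (log2 fold change 1.90, SE 0.50; edgeR adjusted p = 0.0306). For these 2 genes the groups stood apart, as they did for many of the 13181 genes tested, but single libraries ended the calls. Cebpa was lost without CD3+CD8+ replicate 11 (2.23, edgeR adjusted p = 0.117), 2 (2.28, 0.127) or 19 (2.53, 0.0691) and without CD3+CD8- replicate 11 (2.23, 0.072) or 19 (1.90, 0.135). Izumo1r was lost without CD3+CD8+ replicate 11 (1.77, edgeR adjusted p = 0.127) or 2 (1.59, 0.157) and without CD3+CD8- replicate 11 (1.92, 0.0604) or 2 (1.76, 0.0968), and with all 3 libraries rich in ribosomal counts left out it had 1.78 and 0.0694.

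Neutrophil transcripts moved with this contrast: 9 of the 9 neutrophil markers tested were called higher in treated CD3+CD8- libraries, with a median log2 fold change of 6.21, and their summed level ran between 11104 and 31971 CPM there, against 88.7 to 666 CPM in treated CD3+CD8+ libraries. Elane was at 0 in all 3 treated CD3+CD8+ libraries. Macrophage markers summed to between 277 and 412 CPM, against 39.0 to 57.9 CPM, and 2 of 10 were called higher. Of the C/EBP family and its myeloid partners, 4 of 6 genes tested were called higher with none lower, among them Spi1, the myeloid factor PU.1 (4.14, SE 0.62; edgeR adjusted p = 0.0011). Scaling by library totals alone, which moved the median over all genes to -0.55, left Foxp3 as the 1 gene called (4.07, edgeR adjusted p = 0.00579), and a correction for transcript GC content ended the call for Cebpa (2.38, 0.0875) and added Nrp1 (1.40, 0.0379). The part of the neutrophil and macrophage transcripts in the levels of Cebpa, Bcl6, Il2ra and Izumo1r was not tested.

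Of the other 5 genes, Nrp1 stood apart between the groups, with 261, 98.2 and 60.7 CPM in treated CD3+CD8- libraries against 52.8, 58.4 and 44.5 CPM in treated CD3+CD8+ libraries (log2 fold change 1.43, SE 0.45; edgeR adjusted p = 0.0746). Treated libraries of these fractions with the same replicate number deviated together for replicates 11 (r = 0.69) and 19 (r = 0.61), each pair from 1 lane. The replicate 2 pair, from different lanes, had r = 0.12, so number and lane were not separated. With the number as a block Nrp1 was also called (1.20, edgeR adjusted p = 0.039), so that 6 of the 10 genes were called higher beside 7.60% of all genes. Ikzf2 had a log2 fold change of 0.95 (interval -0.29 to 2.18), Cd200 of 0.88 (interval -0.10 to 1.85), Ikzf4 of -0.09 (interval -1.15 to 0.97) and Sh2d1a of -0.41 (interval -1.25 to 0.43). These 4 genes did not pass the test. Ikzf2 was plentiful in both fractions, with 114, 43.7 and 62.2 CPM in treated CD3+CD8+ libraries, and so was Sh2d1a, with 166, 108 and 93.7 CPM there. Ikzf4 had 6.66, 1.55 and 7.77 CPM and Cd200 had 10.2, 10.2 and 7.55 CPM in those libraries.

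**Figure D3:**
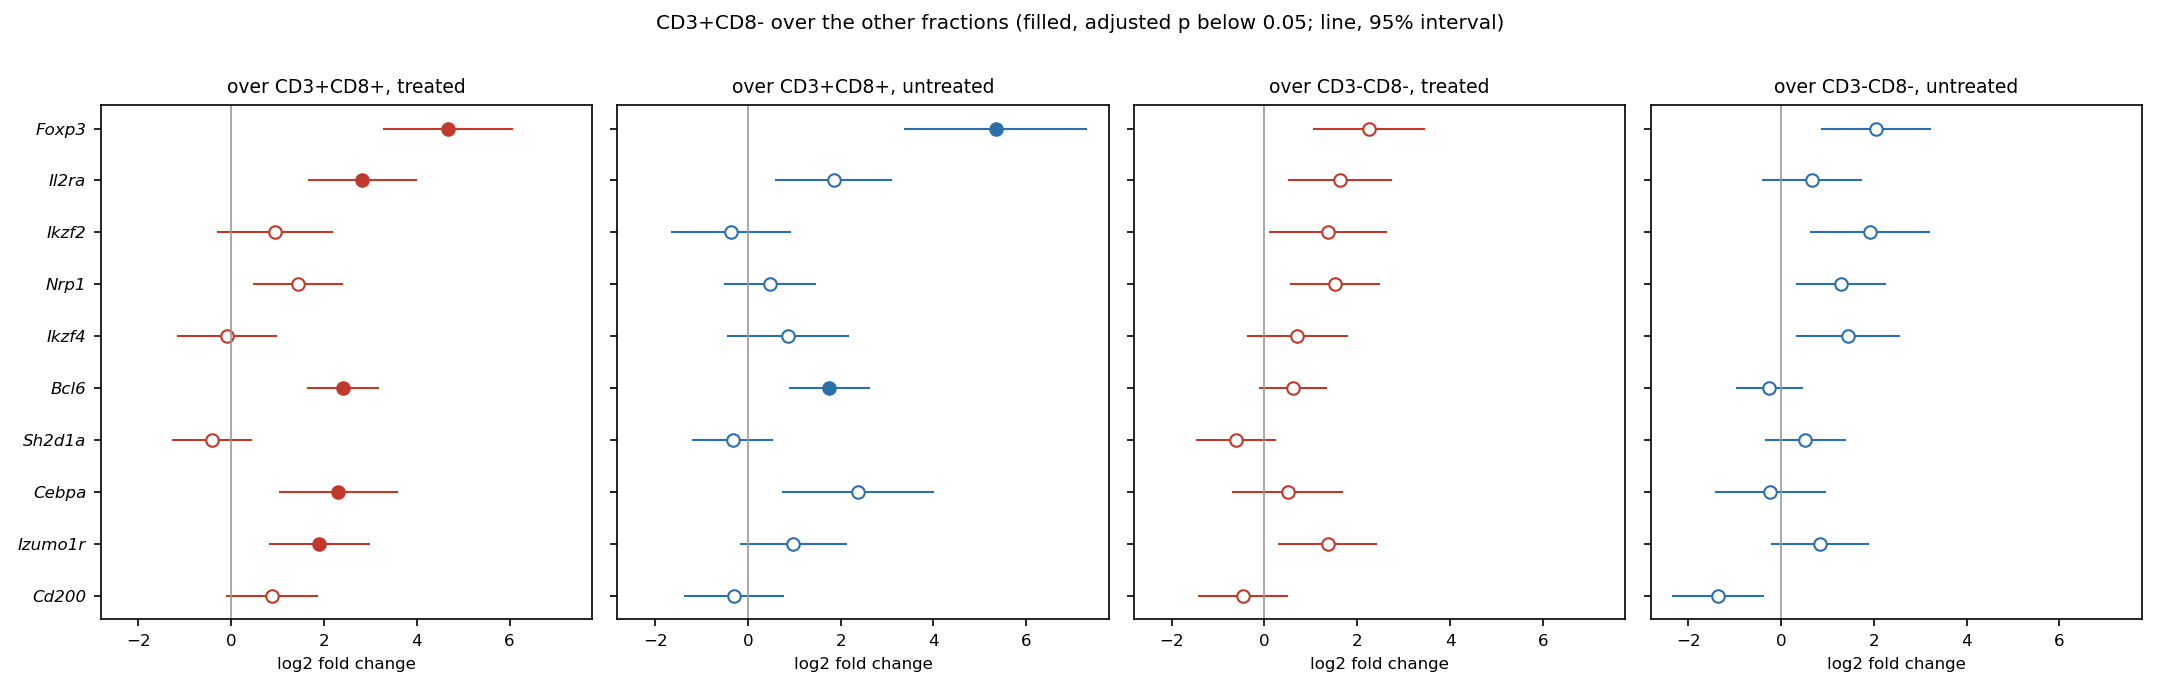
Log2 fold changes of the 10 genes in CD3+CD8- libraries over CD3+CD8+ (left pair) and CD3-CD8- libraries (right pair), in treated (red) and untreated (blue) livers, with 95% intervals from the edgeR fit over all 18 libraries. Filled points passed an adjusted p of 0.05, as Foxp3 (4.68 treated, 5.34 untreated) and Bcl6 (2.40 and 1.76) did over CD3+CD8+ in both treatments.

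In untreated livers 2 of the 10 genes were called higher in CD3+CD8- than in CD3+CD8+ cells, Foxp3 and Bcl6, beside 1.40% of all genes. Foxp3 had 19, 9.16 and 17.0 CPM in untreated CD3+CD8- libraries, against 1.26, 0.104 and 1.85 CPM in untreated CD3+CD8+ libraries, each of which rests on 1 count. The log2 fold change was 5.34 (SE 0.93; edgeR adjusted p = 0.0161), and the pooled counts of 233 against 3 gave a ratio of 58.6 (exact 95% interval 19.8 to 286, counting error only). Without untreated CD3+CD8- replicate 6 the log2 fold change was 5.33 (edgeR adjusted p = 0.0106). The call was lost without CD3+CD8+ replicate 1 (5.94, edgeR adjusted p = 0.0611) or replicate 5 (3.33, 0.0865).

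Bcl6 had 28.4, 25.1 and 12.9 CPM in untreated CD3+CD8- libraries, against 8.80, 3.96 and 11.1 CPM in untreated CD3+CD8+ libraries (log2 fold change 1.76, SE 0.41; edgeR adjusted p = 0.0444). The nearest libraries, 12.9 and 11.1 CPM, were untreated CD3+CD8- replicate 6 and CD3+CD8+ replicate 18. Without replicate 6 the value was 2.10 (edgeR adjusted p = 0.00951). The Bcl6 call was lost without CD3+CD8+ replicate 1 (1.95, edgeR adjusted p = 0.0927) or 5 (1.21, 0.197) and without CD3+CD8- replicate 5 (1.55, 0.138) or 18 (1.69, 0.125). With the libraries rich in ribosomal counts left out, Foxp3 had 7.03 (edgeR adjusted p = 0.0484) and Bcl6 2.46 (0.0604) against the 1 remaining CD3+CD8+ library, which is assumed to vary like the other groups, so these p-values do not carry a spread of its own.

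Il2ra had 27.9, 73.5 and 17.8 CPM in untreated CD3+CD8- libraries, against 16.3, 5.42 and 16.7 CPM in untreated CD3+CD8+ libraries, a log2 fold change of 1.85 (SE 0.59; edgeR adjusted p = 0.149). Without untreated CD3+CD8- replicate 6 it passed as well (2.25, edgeR adjusted p = 0.0464), and then 3 of the 10 genes were called higher beside 2.42% of all genes. Cebpa had 12.8, 8.63 and 8.08 CPM, against 1.26, 1.35 and 5.55 CPM (2.37, SE 0.76; edgeR adjusted p = 0.156). Its groups stood apart without passing the test, as the groups did for many of the 13181 genes tested. Izumo1r (0.98), Ikzf4 (0.87), Nrp1 (0.47), Cd200 (-0.29), Sh2d1a (-0.33) and Ikzf2 (-0.36) did not pass either. In untreated CD3+CD8+ libraries Izumo1r had 8.80, 13.3 and 1.85 CPM, Ikzf4 had 1.26, 2.60 and 1.85 CPM, and Nrp1 had 56.6, 32.4 and 37.0 CPM. Cd200 had 8.80, 12.4 and 35.2 CPM there, Sh2d1a 66.6, 114 and 48.1 CPM, and Ikzf2 122, 29.1 and 104 CPM. Untreated CD3+CD8+ replicate 18, which has the highest Cd200, also has the highest Cebpa and Bcl6 of its group. Neutrophil markers summed to between 3042 and 14524 CPM in untreated CD3+CD8- libraries, against 42.4 to 820.0 CPM in untreated CD3+CD8+ libraries, with 2 of 9 called higher. B cell markers summed to between 59.0 and 75.4 CPM, against 93.5 to 1971 CPM, with 4 of 13 called lower, beside 24 of all 13181 genes. These marker transcripts come from the same libraries. Their part in these results was not tested.

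Against CD3-CD8- cells none of the 10 genes passed in treated livers, where 1.23% of all genes were called, or in untreated livers, where 3.16% were. Cd3e did not follow the labelled sort in treated livers (0.09, edgeR adjusted p = 0.982), with means of 252 CPM in CD3+CD8- and 237 CPM in CD3-CD8- libraries. Cd4 was 3.25 higher (0.00416) and Cd8a 5.77 lower (0.0564) there. In untreated livers Cd3e had 0.77 (0.331). The contrast therefore does not set T cell transcripts against their absence. Foxp3 had 2.71, 2.77 and 2.28 CPM in treated CD3-CD8- libraries and 4.70, 3.32 and 2.89 CPM in untreated ones, below every CD3+CD8- library of the same treatment. Many of the 13181 genes tested had groups that stood apart in these contrasts, so such separation is not particular to Foxp3. The log2 fold change of Foxp3 was 2.25 (SE 0.56; edgeR adjusted p = 0.0614) in treated and 2.05 (SE 0.55; edgeR adjusted p = 0.052) in untreated livers. Without untreated CD3+CD8- replicate 6 none of the 10 was called either, and Foxp3 had 1.97 (SE 0.60; edgeR adjusted p = 0.0775). With the replicate number as a block, 4 of the 10 genes were called higher in treated CD3+CD8- cells, beside 3.29% of all genes. They were Foxp3 (2.24, edgeR adjusted p = 0.00724), Il2ra (1.64, 0.00466), Izumo1r (1.40, 0.00754) and Nrp1 (1.29, 0.0182). Without the block their edgeR adjusted p-values were 0.0614, 0.133, 0.195 and 0.105. In the same contrast without the block, 12 of 13 B cell markers were called lower in treated CD3+CD8- cells, and NK cell markers had a median log2 fold change of -1.36 with 1 of 8 called lower. Neutrophil markers (median 1.66, 9 of 9 above 0) and plasmacytoid dendritic cell markers (median 1.46, 8 of 8 above 0) had none called. The part of these transcripts in the 4 calls was not tested.

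Between treated and untreated CD3-CD8- cells 5 of the 10 genes passed the edgeR test, 3 higher (Sh2d1a, Ikzf2 and Nrp1) and 2 lower (Bcl6 and Cd200). Over all 13781 genes 10.2% were called higher and 15.3% lower (1407 and 2115 genes, against 351 and 1692 with library totals as the scaling). The median log2 fold change of the 10 was -0.15, against -0.06 over all genes. Sh2d1a had 146, 152 and 129 CPM in treated CD3-CD8- libraries, against 49.7, 52.7 and 27.5 CPM in untreated ones, a log2 fold change of 1.69 (SE 0.23; edgeR adjusted p = 0.00878). The groups lay far apart, and the call held without each of the 6 libraries in turn. Ikzf2 had 81.2, 38.2 and 43.6 CPM in treated libraries, against 22.5, 18.3 and 9.79 CPM in untreated ones (1.68, SE 0.38; edgeR adjusted p = 0.0194). Nrp1 had 45.1, 64.4 and 36.7 CPM, against 16.7, 28.5 and 24.7 CPM (1.01, SE 0.26; edgeR adjusted p = 0.0305). Both genes' groups stood apart as well.

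Bcl6 fell to 10.9, 20.0 and 12.8 CPM in treated CD3-CD8- libraries, against 26.3, 30.4 and 23.0 CPM in untreated ones, a log2 fold change of -0.94 (SE 0.22; edgeR adjusted p = 0.0235). Cd200 fell to 21.0, 25.2 and 24.3 CPM in treated libraries, against 36.1, 40.8 and 31.0 CPM in untreated ones, a log2 fold change of -0.65 (SE 0.14; edgeR adjusted p = 0.0167). In both genes every treated library was below every untreated one. In this contrast such separation of the groups was found in a large share of all 13781 genes tested. That share was larger than in any of the contrasts between fractions. Such separation is therefore not particular to the 5 genes called. Of the 5 genes that did not pass, Il2ra had 8.40, 13.9 and 11.9 CPM in treated libraries and 38.5, 12.5 and 24.5 CPM in untreated ones (-1.19, SE 0.39; edgeR adjusted p = 0.0593). Ikzf4 had 2.91, 2.97 and 3.41 CPM, against 1.09, 2.07 and 1.12 CPM (1.06, SE 0.34; edgeR adjusted p = 0.0557). Foxp3 had a log2 fold change of -0.52 (SE 0.28; edgeR adjusted p = 0.205). Cebpa had 2.59, 9.11 and 9.83 CPM in treated libraries and 6.80, 10.5 and 17.9 CPM in untreated ones, and Izumo1r had 13.4, 15.5 and 8.67 CPM and 13.3, 13.0 and 4.97 CPM. The groups of these last 2 genes overlapped.

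Transcripts of several cell types moved in the same contrast. Both CD8 T cell markers were called higher and summed to between 765 and 1416 CPM in treated CD3-CD8- libraries, against 100.4 to 462 CPM in untreated ones. The helper T cell list also holds genes shared with CD8 T cells, such as Cd3e, Cd3d and Cd3g, and 5 of its 9 genes were called higher. It summed to between 2498 and 3538 CPM, against 473 to 1245 CPM. Cd4 itself was not called (0.68, edgeR adjusted p = 0.129), and Cd40lg averaged 8.98 CPM in treated and 12.9 CPM in untreated libraries. B cell markers were called lower for 11 of 13 and summed to between 1967 and 2613 CPM, against 3206 to 4565 CPM. Neutrophil markers were called higher for 4 of 9, with a summed level between 570.5 and 20145 CPM, against 165 to 802 CPM, and Kupffer cell and macrophage markers were called lower for 5 of 10. NK cell markers summed to between 3825 and 4822 CPM in treated libraries, against 1709.7 to 2366 CPM in untreated ones, with 2 of 8 called higher and 1 lower. The part of these shifts in the 5 calls was not tested. A correction for transcript GC content left 1 of the 5 calls, Cd200 (-0.92, edgeR adjusted p = 0.0329), beside 1.18% of all genes called higher and 2.26% called lower. With that correction the other 4 calls were lost: Sh2d1a had 1.01 (edgeR adjusted p = 0.062), Ikzf2 1.14 (0.119), Nrp1 0.64 (0.179) and Bcl6 -0.90 (0.0623).

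Single libraries also ended calls in CD3-CD8- cells. Ikzf2 was lost without untreated replicate 5 (1.71, edgeR adjusted p = 0.0809) or treated replicate 2 (1.23, 0.0644). Nrp1 was lost without untreated replicate 1 (0.80, edgeR adjusted p = 0.0736) or 5 (1.18, 0.0708) and without treated replicate 2 (1.05, 0.0792) or 11 (0.80, 0.0658). Bcl6 was lost without untreated replicate 1 (-0.97, edgeR adjusted p = 0.0631) or 5 (-0.83, 0.119) and without treated replicate 2 (-0.77, 0.0921) or 19 (-0.85, 0.0874). Cd200 was lost without untreated replicate 1 (-0.68, edgeR adjusted p = 0.0519) or 5 (-0.57, 0.0918) and without treated replicate 2 (-0.59, 0.0765) or 19 (-0.68, 0.0594).

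**Figure D4:**
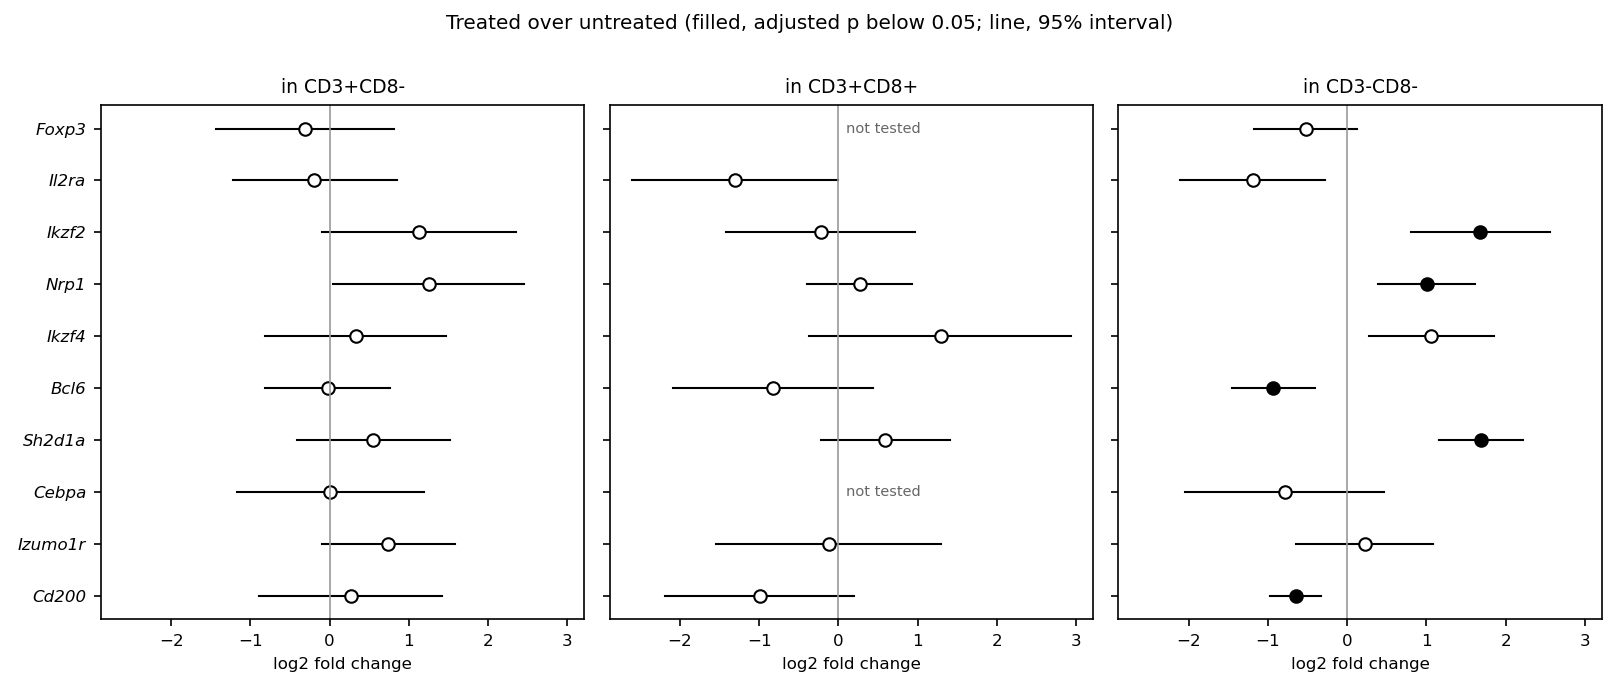
Log2 fold changes of the 10 genes in treated over untreated libraries of each sorted fraction, with 95% intervals (3 libraries against 3, edgeR). Filled points passed an adjusted p of 0.05: none of 10 in CD3+CD8- cells, none of 8 tested in CD3+CD8+ cells, and 5 of 10 in CD3-CD8- cells, where Sh2d1a had 1.69 and Bcl6 -0.94.

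In CD3+CD8+ cells 8 of the 10 genes had enough counts to be tested between treated and untreated livers, and none passed in the edgeR test, nor did any of the 10654 genes (0% called; 624 had an unadjusted p below 0.05, and DESeq2 called 98). Foxp3 and Cebpa were not tested. Il2ra had the lowest unadjusted p of the 8, with 6.99, 4.49 and 3.50 CPM in treated libraries against 16.3, 5.42 and 16.7 CPM in untreated ones (log2 fold change -1.31, SE 0.59; unadjusted p = 0.0497 in the edgeR test). The 2 untreated libraries with the higher values are those rich in ribosomal counts, and with library totals as the scaling the value turned to 0.50, while that scaling moved the median over all genes to 1.17, against -0.03 with TMM. The other 7 genes had log2 fold changes between -0.99 (Cd200) and 1.29 (Ikzf4). Of the listed pathway genes, those of smallest p were Prdm1 (1.68, SE 0.30), Cd244, a SLAM-family receptor (1.66, SE 0.33), and Entpd1 (1.42, SE 0.29), each with an edgeR adjusted p of 0.273.

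Whether the treatment effect differed between fractions was tested as an interaction over all 18 libraries. None of the 10 genes passed for CD3+CD8- against CD3+CD8+ cells or for CD3+CD8- against CD3-CD8- cells, and 0% of all genes did in either contrast (478 and 503 genes had an unadjusted p below 0.05 in the edgeR test, and DESeq2 called 116 and 28 genes, none of the 10). For Sh2d1a the effect in CD3+CD8- minus that in CD3-CD8- was -1.14 (SE 0.56; edgeR adjusted p = 0.977), and for Bcl6 it was 0.87 (SE 0.47; edgeR adjusted p = 0.977). Without untreated CD3+CD8- replicate 6 none of the 10 passed in either interaction, with -0.79 for Sh2d1a (edgeR adjusted p = 0.804) and 0.57 for Bcl6 (edgeR adjusted p = 0.804). The calls in CD3-CD8- cells are therefore not shown to differ from the values in CD3+CD8- cells.

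Ordered by mean CPM over the 6 groups, the 10 genes did not share a pattern. Foxp3 averaged 12.3 ± 6.30 CPM in treated and 15.0 ± 5.20 CPM in untreated CD3+CD8- libraries (SD, n = 3 each), the highest 2 groups, whose ranges overlapped. Below them stood treated CD3-CD8- (2.59 ± 0.266) and untreated CD3-CD8- libraries (3.63 ± 0.944), apart from each other and from the groups next to them, and last the CD3+CD8+ libraries (0.371 ± 0.349 treated, 1.07 ± 0.888 untreated), whose ranges overlapped. Izumo1r was highest in treated CD3+CD8- libraries (32.0 ± 5.00 CPM), then untreated ones (18.6 ± 8.04), with overlapping ranges between all neighbors. Il2ra was highest in untreated CD3+CD8- libraries (39.7 ± 29.7 CPM) and lowest in treated CD3+CD8+ ones (4.99 ± 1.80), which alone stood apart from the next group.

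Ikzf2 and Nrp1 were highest in treated CD3+CD8- libraries (142 ± 91.9 and 139.9 ± 106 CPM) and lowest in untreated CD3-CD8- ones (16.9 ± 6.49 and 23.3 ± 6.02 CPM), and for both genes only that lowest group stood apart from its neighbor. Bcl6 averaged 22.2 ± 1.95 CPM in treated and 22.1 ± 8.15 CPM in untreated CD3+CD8- libraries, just below its highest group, untreated CD3-CD8- libraries (26.6 ± 3.71), with overlapping ranges between neighbors. Cd200 averaged 23.5 ± 2.18 CPM in treated CD3-CD8- libraries, against 36.0 ± 4.90 CPM in untreated ones, its highest group, which stood apart. Cebpa was also highest in untreated CD3-CD8- libraries (11.7 ± 5.64 CPM), and Sh2d1a was highest in treated CD3-CD8- libraries (142 ± 11.6 CPM), in both cases with overlapping ranges between all neighbors. Ikzf4 stayed between 1.09 and 7.77 CPM in all 18 libraries. Thus Foxp3, Il2ra, Ikzf2, Nrp1 and Izumo1r had their highest mean in CD3+CD8- libraries, Ikzf4 in treated CD3+CD8+ libraries (5.33 ± 3.31 CPM), and Bcl6, Cd200, Cebpa and Sh2d1a in CD3-CD8- libraries. In the latter, B cell markers summed to between 1967 and 4565 CPM, and T cell, NK cell, neutrophil and macrophage markers were present too. Their part in the levels of these 4 genes was not tested. Without replicate 6 the untreated CD3+CD8- means (n = 2) were 14.1 CPM for Foxp3, 50.7 for Il2ra, 75.8 for Ikzf2, 69.0 for Nrp1, 3.75 for Ikzf4, 47.4 for Sh2d1a, 10.7 for Cebpa, 19.8 for Izumo1r and 17.8 for Cd200. That of Bcl6 was then 26.8 CPM, beside 26.6 CPM in untreated CD3-CD8- libraries, so that its order there turns on that library.

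Levels of different genes can be set side by side only per length. On the FPKM scale, over the 6 CD3+CD8- libraries, Sh2d1a had a median of 92.8 FPKM, between 9.89 and 181. Izumo1r followed at 17.4 FPKM and Nrp1 at 8.38 FPKM, Il2ra at 7.50 FPKM, Cd200 at 5.96 FPKM, Bcl6 at 5.57 FPKM, Cebpa at 5.27 FPKM and Ikzf2 at 5.11 FPKM. Foxp3 had a median of 3.54 FPKM, between 0.756 and 6.76, and Ikzf4 was lowest at 0.788 FPKM. The ranges of most neighbors in this order overlap. These FPKM were used as deposited, without TMM scaling, and the 6 libraries include treated replicate 2, with 83.98% of its counts on the 5 loci named above. In the untreated libraries alone the lowest values were 55.3 FPKM for Sh2d1a and 2.26 FPKM for Foxp3. The part of the ribosomal counts in the low ends was not tested.

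Other genes of the same cell types were followed in fixed lists. In CD3+CD8- cells none of the 20 other regulatory T cell genes tested and none of the 19 other follicular helper genes tested was called for treatment. In that contrast 0% of all genes were called. The median log2 fold changes of the 2 lists were 0.46 and 0.54, with 15 and 14 genes above 0, against a median of -0.02 over all genes. The listed genes of smallest p were Prdm1, the Bcl6 antagonist Blimp-1 (0.93, SE 0.32), Cd200r2, a CD200 receptor-like gene (1.91, SE 0.68), and Il21, a cytokine of follicular helper cells (3.41, SE 1.22), each with an edgeR adjusted p of 1. Between CD3+CD8- and CD3+CD8+ cells of treated livers 6 of the 20 regulatory genes and 5 of the 19 follicular helper genes were called higher and none lower, where 5.44% of all genes were called higher. They include Tnfrsf4, the costimulatory receptor OX40 (3.73, SE 0.51; edgeR adjusted p = 8.42e-04), and Ebi3, a subunit of IL-35 and IL-27 (4.69, SE 0.65; edgeR adjusted p = 8.42e-04). Cd40lg, the ligand by which helper T cells signal to B cells, was higher too (5.59, SE 0.84; edgeR adjusted p = 0.0011), as was Capg, an actin-capping protein (2.38, SE 0.31; edgeR adjusted p = 6.92e-04). In untreated livers, where 1.40% of all genes were called higher and 24 of 13181 lower, 2 of the 20 regulatory genes were called higher and 1 lower. They were Tnfrsf4 at 3.21 (SE 0.61; edgeR adjusted p = 0.0201), Entpd1, the ectonucleotidase CD39, at 1.31 (SE 0.30; edgeR adjusted p = 0.044) and Itgae, the integrin chain CD103, at -2.15 (SE 0.41; edgeR adjusted p = 0.0201). None of the 19 follicular helper genes was called there (median log2 fold change 0.41, against -0.02 over all genes). Csf3r, the granulocyte colony-stimulating factor receptor, from the list of C/EBP partners, was higher as well (4.36, SE 0.99; edgeR adjusted p = 0.042).

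The partners of single members were followed in further lists. Of 10 genes of the IL-2 receptor and its signaling, none was called between CD3+CD8- and CD3+CD8+ cells in either treatment, although Il2ra itself was higher in treated livers. Of 3 other Ikaros-family genes 1 was called lower in treated CD3+CD8- than CD3+CD8+ cells, and of 10 SLAM receptors and adaptors 2 were. Of all 13181 genes, 68 were called lower in that contrast. In CD3-CD8- cells treatment went with 4 of 10 SLAM-family genes higher and none lower, in the fraction where Sh2d1a rose, and with 2 of 4 CD200 receptor genes higher where Cd200 fell. Beside 10.2% of all genes called higher and 15.3% called lower in that fraction, 5 of the 20 regulatory genes rose and 6 fell, among them Il10, an anti-inflammatory cytokine (3.44, SE 0.42; edgeR adjusted p = 0.00826), and Capg (-1.34, SE 0.18; edgeR adjusted p = 0.00863). Of the 19 follicular helper genes 3 rose and 4 fell, among them Tcf7, which encodes TCF-1 (-1.28, SE 0.18; edgeR adjusted p = 0.00905), and Gpr183, a receptor that guides lymphocyte positioning (-0.96, SE 0.13; edgeR adjusted p = 0.00905). B cell and T cell marker transcripts moved in the same contrast, as given above, and their part was not tested.

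Against CD3-CD8- cells, 3 of the 20 regulatory genes were called higher in treated CD3+CD8- cells and 1 in untreated ones, with 0 and 2 called lower, where 1.23% and 3.16% of all genes were called in either direction. Gpr83, a receptor found on regulatory T cells, was higher in both (3.43, SE 0.52, and 3.03, SE 0.49; edgeR adjusted p = 0.00416 and 0.00366). Cxcr5, the chemokine receptor that draws follicular helper T cells and B cells into follicles, was lower in treated (-1.74, SE 0.39; edgeR adjusted p = 0.0381) and untreated CD3+CD8- cells (-3.54, SE 0.42; edgeR adjusted p = 4.34e-04), in which 12 of 13 and 13 of 13 B cell markers were lower as well. Pou2af1, a B cell coactivator on the follicular helper list, was lower in treated (-3.90, SE 0.76; edgeR adjusted p = 0.0185) and untreated CD3+CD8- cells (-4.63, SE 0.78; edgeR adjusted p = 0.00445). Tcf7 was higher in treated (2.87, SE 0.39; edgeR adjusted p = 0.00292) and untreated ones (2.0, SE 0.37; edgeR adjusted p = 0.0088). The IL-6 receptor chains Il6ra in treated (1.96, SE 0.35; edgeR adjusted p = 0.0105) and Il6st in untreated cells (1.36, SE 0.28; edgeR adjusted p = 0.0147) were higher, and Cd244 was lower in treated cells (-1.44, SE 0.28; edgeR adjusted p = 0.0184).

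The genes whose levels followed each member most closely over the 18 libraries were ranked by the root mean square difference of centered log2 CPM, among 7444 genes whose log2 CPM averaged 3 or more. Foxp3, Ikzf4 and Cebpa were below that floor and were not ranked. Closest to Sh2d1a were Cd3d (0.31), Cd48 (0.34) and Cd3g (0.36), where the median over all candidates was 0.81. Closest to Nrp1 were Phactr2 (0.32), Hnrnpll (0.42) and Tbc1d4 (0.43), against a median of 0.93. Bcl6 was closest to Plin2 (0.36), Lyn (0.37) and Themis2 (0.38), against a median of 1.15, and Cd200 to Tnfrsf13b (0.38), Sypl (0.39) and Prcp (0.40), against 0.95. Il2ra was closest to Aqp9 (0.40), Tpd52 (0.47) and Gpr35 (0.50), against 1.27. Ikzf2 was closest to Gprin3 (0.57), Inpp4b (0.57) and Cd28 (0.60), against 1.19, and Izumo1r to Pglyrp1 (0.56), Arid3a (0.61) and Rab3d (0.65), against 1.12. These distances describe likeness over libraries that share fractions and treatments.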

How the data were processed

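Bulk RNA-seq counts per gene from 18 libraries were analysed as the authors deposited them. HTSeq 0.13.5, Trim Galore 0.6.7, Cufflinks 2.2.1 and DESeq2 3.20 are named in the submitters' processing notes, while the sources used here name neither aligner nor build. A deposited table of FPKM values by the authors gave gene symbols and levels per length. Of the library columns of the count table, 22 were not used. Of the identifiers, 48242 took their symbol from that table and 147 from a reference list, and 51 had none.

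Counts were filtered by expression, scaled by TMM and tested with edgeR 4.0.16 (quasi-likelihood, R 4.3.3) over all genes with Benjamini-Hochberg adjustment and a threshold of 0.05. Treatment was tested within each fraction on 6 libraries, and fractions and interactions in 1 fit of all 18. Intervals are 95% intervals. Levels are TMM CPM, with a prior count of 2 on the log2 scale. For FPKM, limma 3.58.1 was run on log2(FPKM + 1), a scale that understates the change of low genes. DESeq2 1.42.0, other scalings, filters, covariates and libraries left out were alternatives, and the GC correction used a loess curve of span 0.3 over the 99.9% of tested genes with a GC value. A count of 0 allows up to 3 counts, which is between 0.0721 and 5.55 CPM by library. The scripts were tested on simulated counts.

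In treated livers, deviations from the group means were compared between libraries with the same replicate number. For replicates 11, 2 and 19, r was 0.69, 0.12 and 0.61 for CD3+CD8- with CD3+CD8+, and 0.23, 0.28 and 0.44 with CD3-CD8-. The blocked values therefore stand beside those results. Replicates 11 and 19 each lie in 1 lane, and the replicate 2 CD3+CD8- library in another lane than its partners, so number and lane were not separated. Members and lists were chosen with earlier results of these data known. Named genes are all 10 members, the sort markers, up to 5 called genes of smallest adjusted p per comparison from the pathway lists (3 of smallest p where none passed), and the 3 nearest genes of each member whose log2 CPM averaged 3 or more. A gene that this rule names is not reported here.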

Additional observations from a re-analysis of the deposited data

How the results depend on the processing

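Across 1107 recomputed log2 fold changes of the 10 genes, 935 kept their direction and their side of the threshold, 57 fell below it, 54 passed it and 61 changed direction. Most were not called in the main fit and could not fall below it, so these numbers do not measure how firm the calls are. With 1 library left out, calls were lost 29 times. For treatment in CD3-CD8- cells, leaving out the libraries rich in ribosomal counts removed no library, so those values could not move. The causes were not tested. Calls over all genes moved with the setting too, so a count of members called is not by itself a result about the members. For treatment in CD3-CD8- cells the main fit called 3522 of 13781 genes. DESeq2 called 5479 of 13768, lane as a covariate 2524, library totals alone 2043 and the GC correction 474. No member was called for treatment in CD3+CD8- or CD3+CD8+ cells, or in either interaction, under any alternative run. For treatment in CD3-CD8- cells the 5 calls became 1 with the GC correction, 0 in 1 fit of all 18 libraries and 0 with limma on FPKM, 7 with DESeq2, 4 with lane as a covariate, and between 1 and 5 with 1 library left out, and the split of 3 higher and 2 lower became 2 and 3 with library totals alone. For CD3+CD8- against CD3+CD8+ in treated livers the 5 calls became 1 with library totals alone, 4 without the libraries rich in ribosomal counts (with or without replicate 6), 6 with no filter, 6 with DESeq2, 6 with the replicate block, and between 3 and 5 with 1 library left out. In untreated livers the 2 calls became 4 with library totals alone and 4 with no filter, 1 with lane as a covariate, 1 without the libraries rich in ribosomal counts, 0 with only the libraries compared, 3 each with DESeq2, the GC correction, the replicate block and without replicate 6 and the libraries rich in ribosomal counts, and between 0 and 3 with 1 library left out. Against CD3-CD8- in treated livers the 0 calls became 4 with no filter, 3 with DESeq2, 2 with the GC correction, 3 with only the libraries compared and 4 with the replicate block. In untreated livers they became 4 with no filter, 3 with DESeq2, 1 with lane as a covariate, 1 without the libraries rich in ribosomal counts, 2 with the GC correction, 2 with only the libraries compared, 6 with the replicate block, and 1 without these libraries and replicate 6 together, an alternative chosen after seeing the data. In untreated livers only 2 replicate numbers are shared by the fractions (r = -0.05 and 0.51 for CD3+CD8- with CD3+CD8+, 0.44 and 0.57 with CD3-CD8-). No paired analysis was possible for treatment because treated and untreated libraries share no number. Over all genes, the 785 calls of 13181 against CD3+CD8+ cells in treated livers became 1117 with DESeq2 and 454 with library totals alone. In untreated livers the 208 calls became 516 and 756. Against CD3-CD8- cells the 162 calls in treated livers became 616 with DESeq2 and 313 with the GC correction. The 417 calls in untreated livers became 754 and 612.

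Signs changed for treatment in CD3+CD8- cells with lane as a covariate (Il2ra 0.19, Bcl6 0.21), with library totals alone, where the median over all genes was -0.525, against -0.02 with TMM (Ikzf4 -0.50, Cebpa -0.27, Cd200 -0.06), without the libraries rich in ribosomal counts (Ikzf4 -0.05) and with limma on FPKM (Sh2d1a -0.17, Cebpa -0.41, Cd200 -0.50). In CD3+CD8+ cells they changed with library totals alone, which moved the median over all genes to 1.17, against -0.03 with TMM (Il2ra 0.50, Ikzf2 1.79, Bcl6 0.82, Izumo1r 0.71, Cd200 0.50), with lane (Ikzf2 0.27), without the libraries rich in ribosomal counts (Ikzf2 1.32, Bcl6 0.08) and with limma (Ikzf2 1.40, Izumo1r 1.18, Cd200 0.61). The FPKM given to limma were used as deposited, without TMM scaling. Ptprc averaged 522 FPKM in treated and 162 FPKM in untreated CD3+CD8+ libraries, where its TMM-scaled means were 2472 and 2125 CPM. In CD3-CD8- cells signs changed with the GC correction (Foxp3 0.10, Cebpa 0.28). Between CD3+CD8- and CD3+CD8+ cells of untreated livers they changed with library totals alone, where the median over all genes was 1.15, against -0.02 with TMM (Ikzf2 1.70, Sh2d1a 0.46, Cd200 1.10), without the libraries rich in ribosomal counts (Ikzf2 1.10, Cd200 0.13), without these and replicate 6 (Ikzf2 1.34, Cd200 0.46), with the GC correction (Ikzf2 0.03) and with the replicate block (Ikzf2 0.50). Against CD3-CD8- cells in untreated livers Cebpa was 0.29 with the GC correction.

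With 1 library left out, treatment values in CD3+CD8- cells that changed sign ranged between -0.62 and 0.07 for Foxp3, -0.52 and 0.58 for Il2ra, -0.05 and 0.55 for Ikzf4, -0.28 and 0.22 for Bcl6, -0.43 and 0.38 for Cebpa, and -0.26 and 0.55 for Cd200. In CD3+CD8+ cells Ikzf2 ranged between -0.67 and 0.16 and Izumo1r between -0.78 and 0.56, and in CD3-CD8- cells Izumo1r between -0.09 and 0.44. Between CD3+CD8- and CD3+CD8+ cells Ikzf4 ranged between -0.52 and 0.32 in treated livers, and in untreated livers Ikzf2 between -0.80 and 0.04, Sh2d1a between -0.66 and 0.10 and Cd200 between -0.59 and 0.33. Against CD3-CD8- cells in untreated livers Il2ra ranged between -0.13 and 1.04 and Cebpa between -0.57 and 0.19. Over all genes, the 3522 calls for treatment in CD3-CD8- cells became 474 with the GC correction, 76 in 1 fit of all 18 libraries and 5479 with DESeq2, and the 785 and 208 calls against CD3+CD8+ cells became 1294 and 775 with no filter. The 162 and 417 calls against CD3-CD8- cells became 777 and 3245 with the replicate block. Low counts limit Foxp3 most, since 5 of the 6 CD3+CD8+ libraries hold 1 count of it.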
